A study of Mus musculus with 11 samples.

Results

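A set of receptor genes through which monocytes and macrophages sense chemoattractants, *Ccr1*, *Ccr2*, *Cx3cr1*, *Cxcr4*, *Cmklr1* and *Ccrl2*, were followed in sorted alveolar macrophages (AMs) of mice that lack or keep the retinoid X receptors RXRα and RXRβ. They were taken by gene name, and all 6 were found among the 12932 genes of the deposited table. RNA-seq libraries were made from 40000 cells each, sorted from the airways or lung of 9-wk-old C57BL/6J mice. The series describes lung digestion and the methods describe bronchoalveolar lavage. Mature AMs (mAMs) were CD11b-negative and SiglecF-positive, and immature AMs (ImmAMs) were CD11b-positive and SiglecF-positive. The groups were mAMs of Rxrab fl/fl mice without Cre (mAM_WT in the labels, genotype CD11cCre- Rxrabfl/fl, n = 4), mAMs of CD11cCre+ Rxrabfl/fl mice (mAM_KO, 4 libraries) and ImmAMs of that same Cre-positive genotype (Imm_KO, n = 3). All mice, controls included, carried the floxed *Rxra* and *Rxrb* alleles. Cre was driven by the *Cd11c* promoter, which is active in AMs and also in dendritic cells. mAM_KO replicate 4 was not among the libraries the study compared. It was left out of the fit, so n = 3 for that group, and its values are given for the 6 receptors and beside some other results.

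Chemoattractant receptors sit in the plasma membrane and couple to Gi proteins, which link ligand gradients to actin, integrins and directed movement. CCR2 brings classical monocytes out of the bone marrow towards CCL2, CX3CR1 binds the membrane-anchored chemokine CX3CL1, and CXCR4 holds leukocytes in CXCL12-rich niches. In the lung, monocytes that use such receptors can settle and become AMs, and resident mAMs are known for low CCR2 and CX3CR1.

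The comparisons asked how these receptors differed after RXR loss within the mature gate (mAM_KO against mAM_WT), and how RXR-deficient ImmAMs stood against control and RXR-deficient mAMs. In Imm_KO, all 6 receptors were higher than in either mAM group, from 1.86-fold for *Ccr1* to about 144-fold for *Cx3cr1* over mAM_WT, with *Cmklr1* almost without reads in mAMs. Within the mature gate, *Cx3cr1* was the 1 receptor of 6 that passed the test, 4.76-fold higher in mAM_KO, where 4.84% of all genes were called, 2.25% as higher and 2.59% as lower. That call was lost without mAM_KO replicate 1 or 3 and under 3 of 14 other analysis choices. Levels are in CPM, the reads of a gene relative to the size of its library, scaled between libraries by the authors, and differences are log2 fold changes from limma over 12889 genes with Benjamini-Hochberg adjustment and a threshold of 0.05. No control ImmAMs were among these libraries, so genotype and gate cannot be told apart in Imm_KO against mAM_WT.

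Libraries held 16659960 to 37873532 counted reads. The whole-gene values do not resolve the floxed exons: *Rxra* lay between 310 and 380 CPM in mAM_WT, between 334 and 351 in mAM_KO and between 283 and 305 in Imm_KO, with *Rxrb* at 51.4 to 72.1, 39.3 to 52.8 and 31.9 to 35.2 CPM. Neither passed the test in mAM_KO against mAM_WT (limma adjusted p = 0.993 and 0.0972). *Siglecf*, whose product both gates require, averaged 257, 221 and 19.6 CPM in mAM_WT, mAM_KO and Imm_KO (log2 -3.71 in Imm_KO against mAM_WT, limma adjusted p = 2.07e-12). The CD11b gene *Itgam* averaged 3.63, 7.25 and 170 CPM. The summed CPM of 12 AM marker genes overlapped between all groups (19998 to 25818, 23846 to 29496 and 22185 to 23899), but *Chil3* alone averaged 16163 CPM in mAM_WT and 21175 in Imm_KO. Most other markers of the list were far lower in Imm_KO than in mAM_WT, such as *Marco* (means of 342 and 12.6 CPM), *Ear1* (943 and 15.1), *Ear2* (2140 and 80.0), *Krt79* (671 and 6.54), *Cidec* (388 and 8.95) and *Fabp1* (210 and 4.05), while *Pparg* averaged 198 and 218 CPM and *Itgax* 1628 and 1425.

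*Ccr1*, *Ccr2*, *Cx3cr1* and *Ccrl2* lay on mouse chromosome 9 (GRCm38, GENCODE vM21). *Ccr1* (ENSMUSG00000025804) spanned chr9:123962124-123968692 on the minus strand, and *Ccr2* (ENSMUSG00000049103) chr9:124101950-124113557 on the plus strand of the same chemokine receptor cluster. *Cx3cr1* (ENSMUSG00000052336) spanned chr9:119901616-120069879 and *Ccrl2* (ENSMUSG00000043953) chr9:111054486-111057519, both on the minus strand. *Cxcr4* (ENSMUSG00000045382) spanned chr1:128588199-128592293 and *Cmklr1* (ENSMUSG00000042190) chr5:113612354-113650426, also on the minus strand. Of 60-base transcript windows, 1.51% of those of *Ccr2* also occurred in another gene, and none of those of the other members did. Exons of *Cx3cr1* overlap those of the antisense gene *Gm33858*, and the strand setting of the counting was not given in the sources used here.

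RefSeq promoter windows (GRCm38.p6) were matched for all 6 members, with 3 start sites for *Ccrl2*. Windows of the 250 bases before the start are shown for *Cmklr1*, which had the largest fitted log2 difference of the 6 between the gates, for *Ccr1*, which differed least, and for *Cxcr4*, the highest per transcript length. None of the 3 touches an annotated exon. Capitals mark CG dinucleotides, the sites of CpG methylation. The windows lie at chr5:113643604-113643853, chr9:123968693-123968942 and chr1:128592300-128592549, each on the minus strand and written 5′ to 3′ along the gene.
Cmklr1: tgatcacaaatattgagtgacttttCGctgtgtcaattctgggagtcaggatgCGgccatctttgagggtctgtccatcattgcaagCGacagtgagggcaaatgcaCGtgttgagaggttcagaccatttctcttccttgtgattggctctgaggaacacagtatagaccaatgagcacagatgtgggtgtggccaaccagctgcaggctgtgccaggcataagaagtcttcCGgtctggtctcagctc
Ccr1: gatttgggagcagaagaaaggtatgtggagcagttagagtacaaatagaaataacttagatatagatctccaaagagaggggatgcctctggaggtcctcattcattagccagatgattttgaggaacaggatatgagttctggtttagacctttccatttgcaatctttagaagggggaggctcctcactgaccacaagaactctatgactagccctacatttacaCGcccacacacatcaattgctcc
Cxcr4: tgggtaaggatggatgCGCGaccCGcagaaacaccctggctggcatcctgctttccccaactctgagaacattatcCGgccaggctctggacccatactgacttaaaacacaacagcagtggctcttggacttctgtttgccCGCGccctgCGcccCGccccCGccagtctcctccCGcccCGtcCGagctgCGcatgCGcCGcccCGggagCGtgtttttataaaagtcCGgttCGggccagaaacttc
The *Cxcr4* window held 19 CG dinucleotides, more than 80.3% of 32817 mouse promoter windows, whose median was 6. The *Ccr1* and *Ccr2* windows each held 1, the *Cx3cr1* window 4, the *Cmklr1* window 5 and the *Ccrl2* windows 5, 6 and 7. Annotated exons covered 233 of the 250 bases of the *Ccr2* window, all 250 of the *Cx3cr1* window and 1, 139 and 140 of the *Ccrl2* windows. The *Cmklr1* window lies within the span given above for that gene. None of the 8 member windows held the nuclear receptor half-site AGGTCA, the PU.1 sequence GAGGAAGT or the AP-1 sequence TGANTCA on either strand. These letters occurred in 14.0%, 2.44% and 6.75% of all windows, none of the 3 sequences contains another, and their absence here says nothing about the factors.

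*Cmklr1* encodes the chemerin receptor, which draws monocytes, plasmacytoid dendritic cells and macrophages to the protein chemerin. In Imm_KO replicates 2, 3 and 4 it was at 15.6, 19.7 and 15.4 CPM, from 262, 425 and 292 reads. In mAM_WT replicates 1 to 4 it had 1, 0, 0 and 0 reads, and in mAM_KO replicates 1 to 4 it had 4, 3, 0 and 3. *Cmklr1* was therefore detected in every ImmAM library and close to absent from every mAM library. A library at 0 reads allows up to 3 reads, which corresponds to 0.113 to 0.166 CPM. Its read rate in Imm_KO was 1872 times that in mAM_WT (exact 95% interval 335 to 74023, counting error only) and 154 times that in the mAM_KO libraries of the fit (74.5 to 384). The limma log2 difference was 9.41 (SE 0.93, adjusted p = 2.95e-06) and 7.47 (adjusted p = 6.65e-05). With 979 reads against 1, the gene passed the filter on low values only through Imm_KO, so it had to differ, and the size of its fitted change depends on how values near 0 are treated. With a pseudocount of 1 its log2 difference from mAM_WT was 4.12, below that of *Cx3cr1* at 6.02. In mAM_KO against mAM_WT, 7 reads against 1 gave a rate ratio of 12.1 (1.56 to 547), and the limma difference of 1.95 (SE 0.93) did not pass (adjusted p = 0.229).

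*Ccrl2* encodes an atypical receptor that binds chemerin without signalling through G proteins and presents it to CMKLR1 on neighbouring cells. It was at 38.4, 37.8 and 37.7 CPM in Imm_KO. In mAM_WT it was at 10.8, 9.59, 8.05 and 8.18 CPM, and in mAM_KO at 12.5, 7.63, 14.2 and 13.5 CPM. The ImmAM libraries lay close together and above all mAM libraries, while the mAM groups overlapped. *Ccrl2* was 4.18-fold higher in Imm_KO than in mAM_WT (log2 2.06, SE 0.19, limma adjusted p = 1.37e-06) and 3.43-fold higher than in mAM_KO (log2 1.78, SE 0.20, adjusted p = 1.58e-05). In mAM_KO against mAM_WT its log2 difference was 0.28 with a 95% interval of -0.12 to 0.69 (limma adjusted p = 0.381), and it passed without mAM_KO replicate 2, the lowest of that group (adjusted p = 0.0396). The chemerin gene *Rarres2* was not among the genes of the table, so ligand and receptors of this axis were not measured together here.

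*Cx3cr1* encodes the fractalkine receptor, a defining receptor of patrolling monocytes and of many tissue macrophages. It was at 120, 124 and 110 CPM in Imm_KO. In mAM_WT it was at 1.10, 0.583, 0.694 and 1.01 CPM, and in mAM_KO replicates 1 to 4 at 4.69, 1.51, 8.34 and 2.31 CPM. All 4 mAM_KO libraries, replicate 4 included, lay above all 4 mAM_WT libraries, and their spread was wide. *Cx3cr1* was 4.76-fold higher in mAM_KO than in mAM_WT (95% interval 2.46 to 9.20, log2 2.25, SE 0.44, limma adjusted p = 0.0164). Without mAM_KO replicate 1 or 3 the adjusted p was 0.0626 or 0.0616, so this call rests on each of those libraries. It was also lost when only these groups were fitted, without a variance trend and with limma-voom, and over the 14 alternatives the adjusted p ran from 1.17e-04 to 0.0714. The log2 difference was 1.70 without replicate 3, which had the highest value, and 2.93 without replicate 2, which had the lowest of the 3. In Imm_KO *Cx3cr1* was higher by 7.17 on the log2 scale than in mAM_WT (SE 0.44, limma adjusted p = 3.32e-08) and by 4.92 than in mAM_KO (SE 0.47, adjusted p = 3.50e-06). Among 12889 genes, its rise over mAM_WT ranked 23rd from the top and that of *Cmklr1* 4th, an order that a pseudocount of 1 turns for this pair.

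The ligand of CX3CR1 went the other way. *Cx3cl1*, the gene of fractalkine, was at 64.6, 69.1, 64.1 and 65.7 CPM in mAM_WT, at 44.0, 45.7, 29.0 and 45.0 CPM in mAM_KO and at 7.60, 6.05 and 5.23 CPM in Imm_KO. No libraries overlapped between the 3 groups. It was lower by 0.76 on the log2 scale in mAM_KO (SE 0.16, limma adjusted p = 0.0205) and by 3.40 in Imm_KO than in mAM_WT (SE 0.16, adjusted p = 3.03e-09). The mAM_KO call was lost without mAM_KO replicate 3 or mAM_WT replicate 2. mAM_KO replicate 3 held both the highest *Cx3cr1* and the lowest *Cx3cl1* of the mAM_KO libraries.

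**Figure D1:**
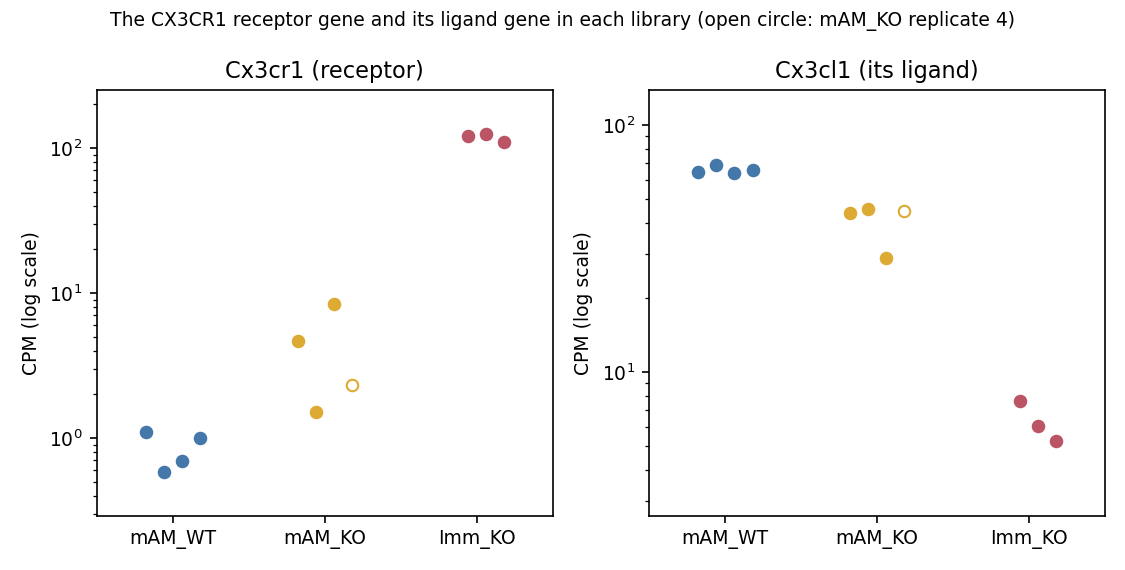
Deposited CPM (log axis) of the receptor gene Cx3cr1 (left) and of its ligand gene Cx3cl1 (right) in each library by group, with mAM_KO replicate 4 as an open circle. Cx3cr1 was at 0.583 to 1.10 CPM in mAM_WT and 110 to 124 CPM in Imm_KO, and Cx3cl1 at 64.1 to 69.1 and 5.23 to 7.60 CPM, with mAM_KO libraries between them for both genes.

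*Ccr2* encodes the receptor for CCL2 and other monocyte chemoattractants and is used to tell classical monocytes from resident AMs. It was at 83.7, 79.0 and 86.4 CPM in Imm_KO. In mAM_WT it was at 14.0, 9.23, 13.5 and 8.91 CPM, and in mAM_KO at 10.4, 15.2, 23.2 and 12.9 CPM. The mAM groups overlapped, and every ImmAM library stood above them. *Ccr2* was 7.43-fold higher in Imm_KO than in mAM_WT (log2 2.89, SE 0.23, limma adjusted p = 4.41e-07) and 5.37-fold higher than in mAM_KO (log2 2.43, SE 0.25, adjusted p = 7.05e-06). Between the mAM groups the log2 difference was 0.47, with an interval of -0.04 to 0.97 (adjusted p = 0.250). mAM_KO replicate 3 had the highest value of the mAM libraries for *Ccr2* as for *Cx3cr1*, at 28.0% and 7.05% of the Imm_KO means. The mAM_WT libraries were at 10.7% to 16.9% for *Ccr2*. For *Cmklr1*, mAM_KO replicate 1 was at 1.23% of the Imm_KO mean, and the 0 reads of replicate 3 allow at most 0.983%. What lay behind these levels was not tested.

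*Ccr1*, a receptor for CCL3, CCL5, CCL6 and CCL9, was well expressed in every library. It was at 182, 169 and 187 CPM in Imm_KO. In mAM_WT it was at 111, 104, 97.2 and 77.0 CPM, and in mAM_KO at 115, 120, 119 and 92.4 CPM. ImmAM libraries were all higher than mAM libraries. The 3 mAM_KO libraries of the fit were just above the highest mAM_WT library, and replicate 4 lay among the controls. *Ccr1* was 1.86-fold higher in Imm_KO than in mAM_WT (log2 0.89, SE 0.10, limma adjusted p = 1.26e-05) and 1.52-fold higher than in mAM_KO (log2 0.60, SE 0.11, adjusted p = 8.62e-04). For mAM_KO against mAM_WT, log2 0.29 (interval 0.07 to 0.52) did not pass (limma adjusted p = 0.113).

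*Cxcr4* encodes the CXCL12 receptor. It was at 285, 274 and 283 CPM in Imm_KO. In mAM_WT it was at 89.5, 110, 88.3 and 82.1 CPM, and in mAM_KO at 121, 106, 112 and 106 CPM. Every ImmAM library was again above every mAM library, and 1 control library, replicate 2, lay within the mAM_KO range. *Cxcr4* was 3.05-fold higher in Imm_KO than in mAM_WT (log2 1.61, SE 0.09, limma adjusted p = 1.72e-08) and 2.49-fold higher than in mAM_KO (log2 1.31, SE 0.10, adjusted p = 3.76e-07). For mAM_KO against mAM_WT the log2 difference of 0.29 (SE 0.09) had an adjusted p of 0.0785, and it passed without mAM_WT replicate 2 (adjusted p = 0.0256).

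**Figure D2:**
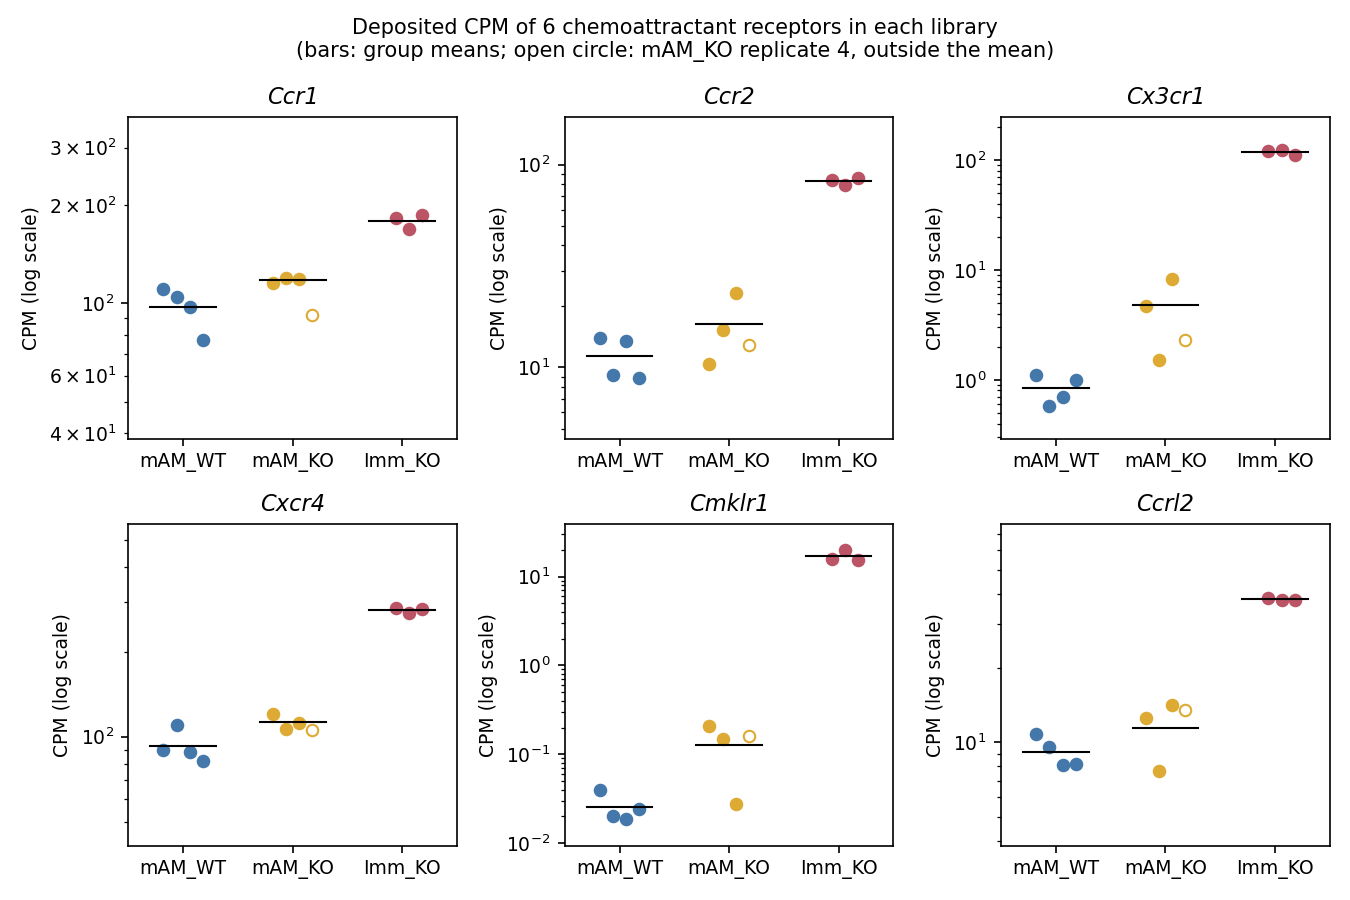
Deposited CPM (log axes) of the 6 receptor genes in each library, grouped as mAM_WT, mAM_KO and Imm_KO, with black bars at the group means and mAM_KO replicate 4 as an open circle outside the mean. For each gene the 3 Imm_KO libraries lie above all mAM libraries, and the gap is widest for Cmklr1 (mean 16.9 CPM) and narrowest for Ccr1 (mean 179 CPM).

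Taken over the receptors, all 6 were called higher in Imm_KO than in mAM_WT, where 48.1% of all genes were called and 22.8% were higher. All 6 were also called higher in Imm_KO than in mAM_KO, where 37.9% of all genes were called, 17.7% as higher and 20.2% as lower. Without *Cmklr1*, which the filter let through only by its ImmAM level, the counts were 5 of 5. The 6 were chosen with earlier results of these data known, and the paper names *Ccr2* among the genes raised in ImmAMs. These counts therefore describe the chosen genes and do not test them as a set. The Imm_KO and mAM_KO comparisons against mAM_WT share their 4 controls and are not independent. For each member the Imm_KO libraries lay above all libraries of mAM_WT, which held for 24.9% of all genes in this direction, or of mAM_KO, which held for 24.8%. In mAM_KO against mAM_WT, 2 members, *Ccr1* and *Cx3cr1*, had no overlap in the higher direction, as had 8.92% of all genes. In these bulk samples, more cells of a type and more RNA per cell cannot be told apart.

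**Figure D3:**
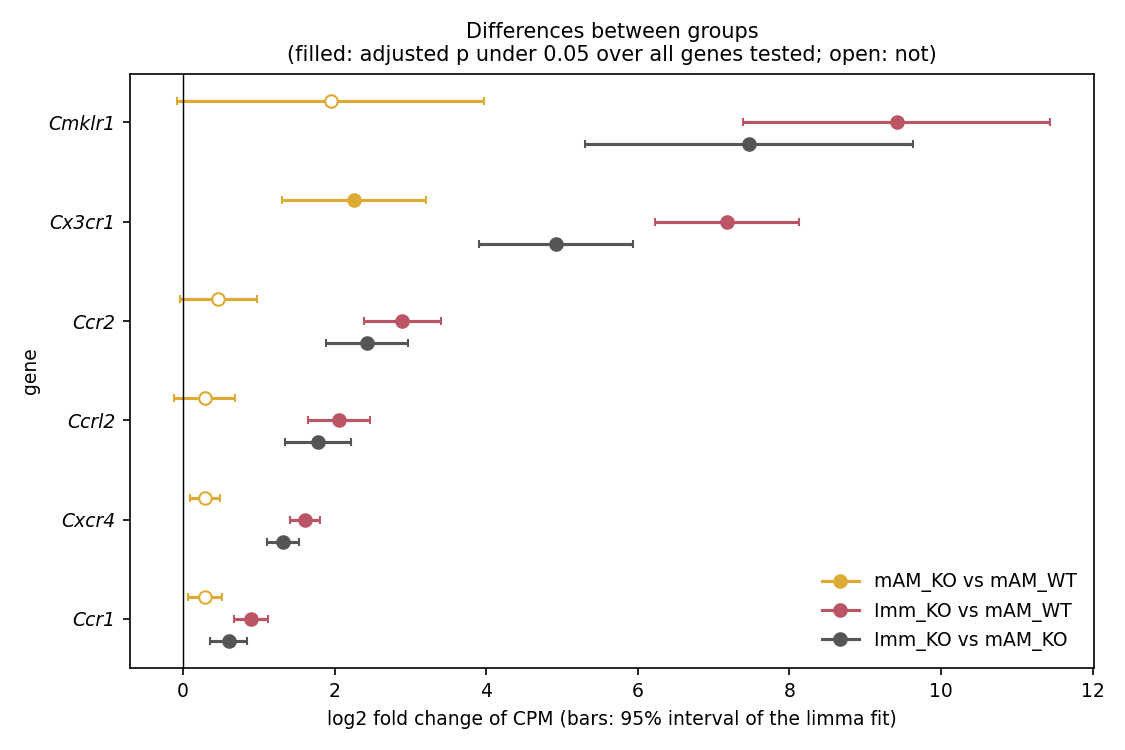
Log2 fold changes of CPM for the 6 receptors in the 3 comparisons (colours), with 95% intervals of the limma fit as bars. Filled points passed an adjusted p of 0.05 over all genes tested, which in mAM_KO against mAM_WT was Cx3cr1 alone (log2 2.25), and the Imm_KO differences run from 0.60 for Ccr1 to 9.41 for Cmklr1.

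Per kilobase of the longest coding transcript, the order of levels in mAM_WT was *Cxcr4* (51.3 ± 6.79 CPM per kb, SD, n = 4), *Ccr1* (34.3 ± 5.15), *Ccrl2* (3.72 ± 0.53), *Ccr2* (1.99 ± 0.48), *Cx3cr1* (0.188 ± 0.055) and *Cmklr1*. No neighbours overlapped between libraries there. In mAM_KO the order was the same, but the libraries of *Ccrl2* (4.66 ± 1.39, n = 3) overlapped those of *Ccr2* (2.84 ± 1.13), and these overlapped those of *Cx3cr1* (1.08 ± 0.76). In Imm_KO *Cx3cr1* moved to the third place. The levels were 155 ± 3.33 for *Cxcr4*, 63.3 ± 3.27 for *Ccr1*, 26.3 ± 1.62 for *Cx3cr1*, 15.4 ± 0.16 for *Ccrl2*, 14.5 ± 0.65 for *Ccr2* and 5.87 ± 0.85 for *Cmklr1* (n = 3). *Ccrl2* and *Ccr2* were the closest neighbours there, with lowest and highest libraries at 15.3 and 15.1 CPM per kb.

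Other receptors for leukocyte attractants did not all rise with the 6. Of 44 listed, 16 were tested, and in Imm_KO against mAM_WT 9 were higher, 4 lower and 3 not called, where 22.8% of all genes were higher and 25.3% lower (median log2 0.82, against -0.003 over all genes). The 9 include *Cxcr2*, named after its value was seen, at means of 2.96 and 4.70 CPM in mAM_WT and Imm_KO (limma adjusted p = 0.0485). Its call was lost in 6 fits that each left out 1 library. *C3ar1*, the receptor for the complement fragment C3a, was at 0.537 ± 0.203 CPM in mAM_WT and 70.9 ± 4.16 in Imm_KO (log2 7.12, SE 0.49, limma adjusted p = 9.70e-08), and it too passed the filter only through Imm_KO. *Ptafr*, the platelet-activating factor receptor, was at 16.5 ± 1.47 and 164 ± 6.04 CPM (log2 3.32, SE 0.17, adjusted p = 9.03e-09). The receptors for bacterial formyl peptides and for C5a, by contrast, were lower in Imm_KO. *Fpr1* fell from 349 ± 14.8 to 57.6 ± 1.14 CPM (log2 -2.60, SE 0.11, limma adjusted p = 1.05e-09), *Fpr2* from 209 ± 20.5 to 38.2 ± 5.24 CPM (log2 -2.46, SE 0.16, adjusted p = 4.83e-08) and *C5ar1* from 352 ± 40.0 to 121 ± 6.51 CPM (log2 -1.53, SE 0.09, adjusted p = 3.05e-08). The other lower receptor was *C5ar2* (log2 -0.79), named after its value was seen. Against mAM_KO, 7 of the 16 were higher and 4 lower in Imm_KO, where 17.7% and 20.2% of all genes were, *C3ar1* (log2 6.41) and *Ptafr* (log2 2.46) among the former. Within the mature gate 2 of 16 were higher in mAM_KO, *Ptafr* (log2 0.86, SE 0.17, limma adjusted p = 0.0189) and the sphingosine-1-phosphate receptor *S1pr2* (log2 0.54, SE 0.12, adjusted p = 0.0329), and none was lower, where 2.25% and 2.59% of all genes were. In mAM_KO replicate 4 they were at 32.2 and 23.8 CPM, close to the mAM_KO means of 31.1 and 22.9. Both calls were lost without mAM_KO replicate 1 or 3, and that of *S1pr2* also without mAM_WT replicate 3.

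**Figure D4:**
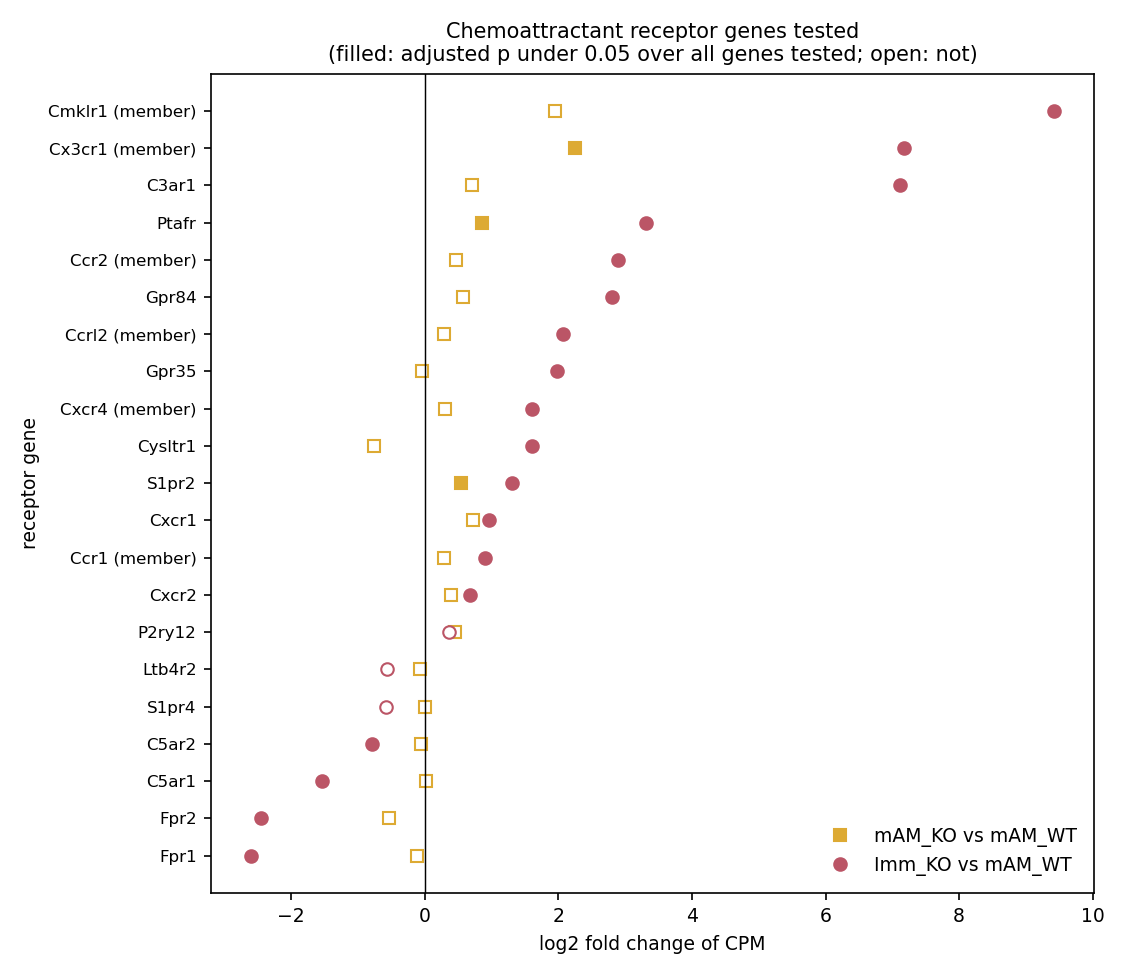
Log2 fold changes of CPM for chemoattractant receptor genes tested (the 6 members and 15 others), in mAM_KO against mAM_WT (squares) and Imm_KO against mAM_WT (circles), which share their controls. Filled symbols passed an adjusted p of 0.05 over all genes tested, and the circles run from Fpr1 at -2.60 to Cmklr1 at 9.41 while 3 squares are filled.

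Near *Ccr1* and *Ccr2*, within 250000 bases, the genes of the table included *Lztfl1* (log2 0.56 in Imm_KO against mAM_WT, limma adjusted p = 0.00374), *Fyco1* (0.21, adjusted p = 0.0537) and *2010315B03Rik* (0.60, adjusted p = 0.0157), whose differences were smaller than that of *Ccr1* at 0.89. The receptor genes *Ccr3*, *Ccr9*, *Cxcr6*, *Xcr1* and *Ccr1l1* of this stretch were not among the genes of the table.

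Of 18 ligands of the 6 receptors and their processing enzymes, 10 were tested. In Imm_KO against mAM_WT 4 were higher, 1 was lower (*Cx3cl1*) and 5 were not called, where 48.1% of all genes were called. *Ccl9*, a CCR1 ligand, was at 85.4 ± 28.4 CPM in mAM_WT and 228 ± 11.2 in Imm_KO (log2 1.47, SE 0.27, limma adjusted p = 6.33e-04). The CCR1 ligand *Ccl6* was abundant throughout, at 2874 ± 388 and 3867 ± 130 CPM (log2 0.44, SE 0.12, adjusted p = 0.0113), and *Ccl3* was at 5.15 ± 0.15 and 10.6 ± 1.15 CPM (log2 1.04, SE 0.23, adjusted p = 0.00210). The 4th was the CCR2 ligand *Ccl2*, named after its value was seen, at means of 0.164 and 3.50 CPM, which reached the filter only through Imm_KO. Against mAM_KO, where 37.9% of all genes were called, 3 were higher, *Ccl2*, *Mif* (log2 0.48, limma adjusted p = 0.0190) and *Cxcl14* (log2 0.40, adjusted p = 0.0460), and *Cx3cl1* was lower. *Mif* and *Cxcl14* depended on the choice of libraries: mAM_KO replicate 4, outside the fit, had 34.7 and 29.0 CPM, above the Imm_KO means of 27.4 and 18.4, and with all 11 libraries neither passed (limma adjusted p = 0.301 and 0.684). In mAM_KO against mAM_WT, *Cx3cl1* was the 1 ligand called of 10, where 4.84% of all genes were called.

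Genes that carry the signal from these receptors to the cytoskeleton, or brake it, moved in both directions. Of 46 names, 41 were tested, and against mAM_WT 12 were higher, 19 lower and 10 not called (median log2 -0.19), where 22.8% and 25.3% of all genes were higher and lower. The 12 include *Gnb4*, named after its value was seen, at means of 0.697 and 1.49 CPM in mAM_WT and Imm_KO. It reached the filter only through Imm_KO, and its call was lost in 5 fits that each left out 1 library. *Arrb1*, encoding β-arrestin 1, which uncouples and internalizes receptors, was at 47.6 ± 1.80 CPM in mAM_WT and 197 ± 11.2 in Imm_KO (log2 2.05, SE 0.09, limma adjusted p = 2.00e-09). *Rgs1*, a GTPase-activating protein that shortens Gi signalling, was at 5.91 ± 2.26 CPM in mAM_WT, 13.1 ± 4.23 in mAM_KO and 65.7 ± 5.18 in Imm_KO. It passed in both comparisons with the controls (log2 1.18, limma adjusted p = 0.0355, and log2 3.56, adjusted p = 3.45e-07). *Fnbp1l*, an actin and membrane-curvature adaptor, was the other leading rise (log2 2.56, limma adjusted p = 1.07e-05). The kinase gene *Ptk2b* (log2 -1.11, SE 0.06, limma adjusted p = 1.85e-08) and the Rac activator *Prex1* (log2 -0.67, SE 0.08, adjusted p = 2.23e-05) were lower. In mAM_KO, 3 of the 41 were lower, where 2.59% of all genes were lower. Among them were *Ptk2b* (log2 -0.28, limma adjusted p = 0.0303, with 313 CPM in replicate 4 and means of 383 in mAM_WT and 315 in mAM_KO) and the kindlin-3 gene *Fermt3* (log2 -0.24, adjusted p = 0.0498). *Fermt3* was at 302 CPM in mAM_KO replicate 4, above the mAM_WT mean of 279, and did not pass with all 11 libraries (limma adjusted p = 0.450). When each of the 10 libraries was left out in turn, the mAM_KO call was lost in 9 fits for *Fermt3*, 6 for *Rgs1* and 5 for *Ptk2b*. In Imm_KO against mAM_KO 8 were higher and 15 lower, where 17.7% and 20.2% of all genes were, *Rap1b* among the latter (log2 -0.49, limma adjusted p = 0.00240).

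Marker genes of other cells that the ImmAM gate could hold were read beside these values, and their part in the results was not tested. Interstitial macrophage markers (8 of 10 in the table) summed to 2.54 to 3.88 CPM in the controls, to 4.21 to 7.09 CPM in mAM_KO and to 197 to 220 CPM in the ImmAMs. Among them the complement gene *C1qb* averaged 0.0757, 0.146 and 47.8 CPM in mAM_WT, mAM_KO and Imm_KO. Classical monocyte markers (5 of 8) summed to 1479 to 2149, 1399 to 1687 and 6522 to 7179 CPM, nearly all of it fibronectin (*Fn1*), while *Ly6c2*, *Plac8* and *Ms4a4c* were not among the genes of the table and *Vcan*, *F13a1* and *Hp* averaged between 1.83 and 4.04 CPM in Imm_KO. Nonclassical monocyte markers (6 of 6), of which *Cx3cr1* was not one, summed to 210 to 228, 231 to 265 and 165 to 172 CPM. Imm_KO had the lowest sums, but the list was split. In mAM_WT and Imm_KO, *Treml4* averaged 46.1 and 3.15 CPM, *Spn* 76.5 and 47.7 and *Nr4a1* 13.6 and 7.76. Higher in Imm_KO were *Ace* (71.5 and 87.6 CPM), *Adgre4* (3.90 and 12.4) and *Eno3* (6.68 and 9.47). Dendritic cell markers (3 of 8) summed to 5.48 to 7.30, 6.35 to 8.15 and 24.3 to 26.6 CPM. Neutrophil markers (7 of 8) summed to 55.8 to 63.5, 113 to 341 and 904 to 977 CPM. Of these sums, the collagenase gene *Mmp8*, which the study lists among its AM-core genes, made up 884 CPM in Imm_KO and 303 in mAM_KO replicate 3. In Imm_KO, *S100a8* was at 14.4 and *S100a9* at 2.67 CPM. Of the eosinophil, B cell and alveolar type 2 cell lists 1 gene each was in the table, and of the T cell, NK cell, endothelial and fibroblast lists none was. Genes induced by tissue dissociation summed to 462 to 594, 445 to 694 and 545 to 599 CPM, overlapping between groups. This list was split too. In mAM_WT and Imm_KO, *Jun* averaged 38.1 and 61.7 CPM and *Junb* 90.1 and 138, while *Fos* averaged 163 and 154 and *Hspa1a* 26.2 and 19.1. *Egr1*, *Atf3* and *Dusp1* also averaged higher in Imm_KO than in mAM_WT, and *Fosb*, *Hspa1b* and *Ier2* lower. In mAM_KO replicate 4, which these ranges leave out, the interstitial macrophage, classical monocyte, nonclassical monocyte, dendritic cell, neutrophil and dissociation sums were 6.96, 1984, 267, 5.61, 157 and 646 CPM.

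**Figure D5:**
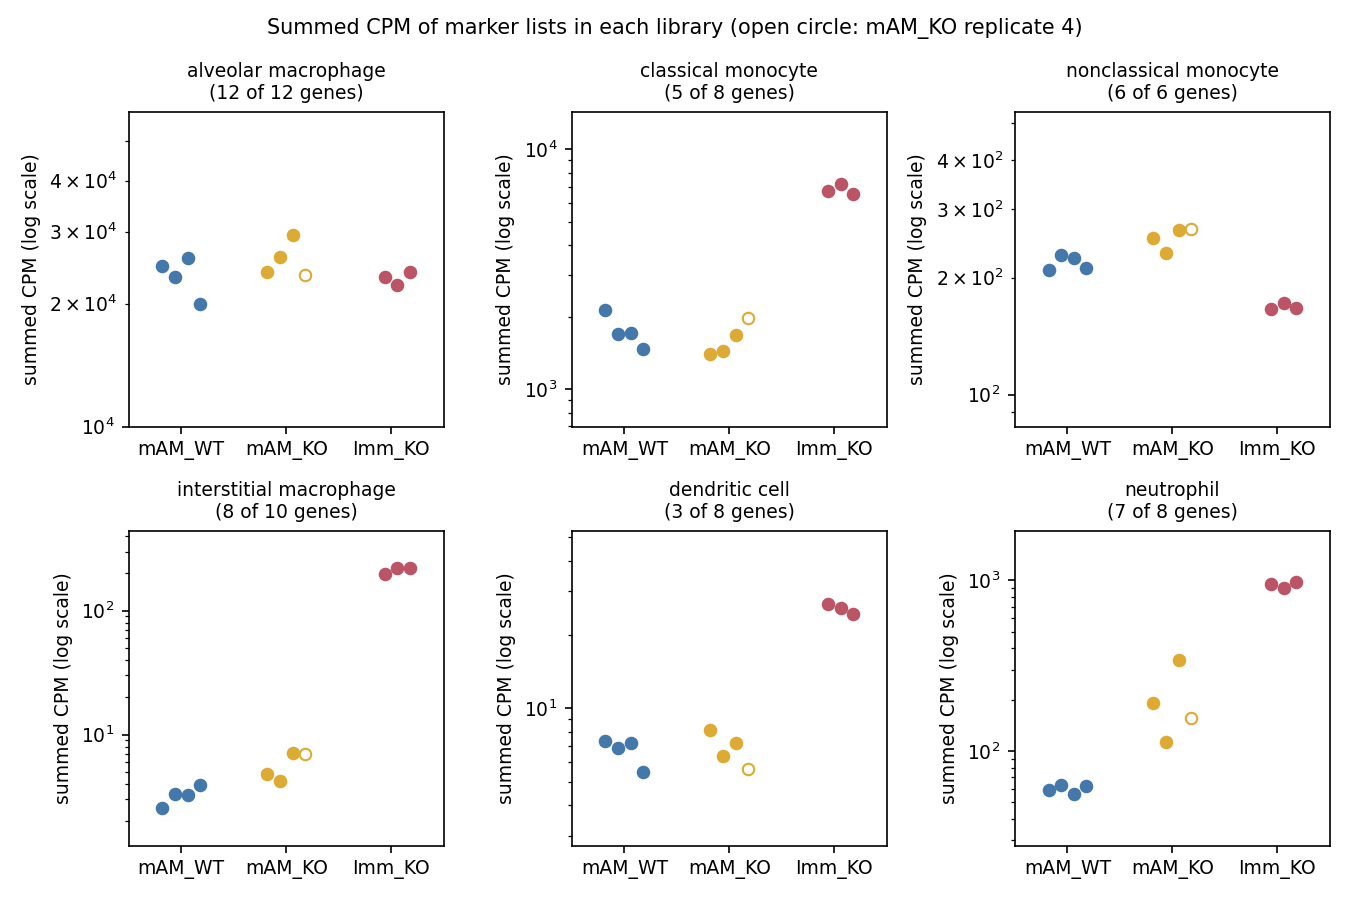
Summed CPM (log axes) of 6 marker lists in each library by group, with the number of list genes found in the table above each panel and mAM_KO replicate 4 as an open circle. Alveolar macrophage sums, most of them Chil3 (mean 21175 CPM in Imm_KO), overlapped, whereas interstitial macrophage sums were 197 to 220 CPM in Imm_KO and 2.54 to 3.88 in mAM_WT.

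Genes whose pattern was most like that of a receptor were found as those with the smallest root mean square difference of centred log2 CPM over the 10 libraries, among 10437 genes. For *Cx3cr1* these were *Pmp22* (0.546), *Vnn3* (0.572) and *Cd200r2* (0.647), and for *Cmklr1* they were *Camk2n1* (0.991), *Slco3a1* (1.17) and *Pianp* (1.21). In mAM_WT, *Camk2n1*, *Slco3a1* and *Pianp* averaged 0.0481, 0.0669 and 0.360 CPM, and *Vnn3* 0.179 CPM. Like *Cmklr1*, they had few reads there, so their distances depend on how low values are treated. For *Ccr2* they were *Cpeb1* (0.243), the MD-1 gene *Ly86* (0.244) and *Lpar6* (0.267), and for *Ccrl2* they were *Syt11* (0.125), the glucose transporter gene *Slc2a1* (0.136) and *Foxred2* (0.144). Among the closest to *Cxcr4* were *Mettl7a1* (0.101) and the interferon-γ receptor gene *Ifngr1* (0.125). *Ccr1* was closest to *Vamp4* (0.0711) and to the C-type lectin genes *Clec12a* (0.0890) and *Clec4n* (0.0934). These distances are descriptions over libraries that fall into 3 groups. They grow with the spread of the receptor itself, so they cannot be compared between receptors.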

How the data were processed

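RNA-seq of sorted AMs was analysed from the deposited table. Per the submitters' notes and the methods, the authors trimmed reads with Cutadapt, estimated expected counts with RSEM 1.3.1 on the GRCm38 transcriptome and dropped genes that did not reach 1 CPM in 3 samples. The deposited values are CPM, scaled by the authors with TMM. Each equals a whole read number plus a constant times a fixed step per library (100% of values, tolerance 0.01), so reads were recovered. Rows with an identifier but no gene name numbered 15 and stayed in the fit.

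Log2 CPM of 10 libraries was fitted with limma 3.58.1 (R 4.3.3; 3 group means, variance trend, two-sided, Benjamini-Hochberg over the 12889 genes that reached 1 CPM in 3 or more of these libraries, threshold 0.05). edgeR 4.0.16, DESeq2 1.42.0 and limma-voom on recovered reads, other filters, pseudocounts, scalings and left-out libraries were alternatives. The labels call libraries individual biological replicates. Intervals for reads are exact and cover counting error only. The scripts were tested on simulated data. The members and gene lists were chosen with earlier results of these data known. Genes outside the members were named by rule: up to 3 called rises and falls per list and comparison at a mean of 5 CPM or more in the higher group, markers, the 3 genes of closest pattern, and genes sharing windows with a member. Some genes that this rule names are not reported here, and they stay in the counts and marker sums.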

Additional observations from a re-analysis of the deposited data

Results flagged for a closer look

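*Ccr1* in mAM_KO replicate 4 stood apart from the other 3 mAM_KO libraries. It was at 92.4 CPM against 115 to 120 CPM, and its gap to the nearest library was 0.836 of the range of the 4. This was 1 of 12 groups of 4 libraries examined, where chance alone sets apart about 1 in 20. The library was outside the fit, and with all 11 libraries the *Ccr1* difference between mAM_KO and mAM_WT was 0.20 on the log2 scale, in place of 0.29. Neither passed the test.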

How the results depend on the processing

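All 6 receptors stayed called in both Imm_KO comparisons under each of the 14 alternatives. Leaving out any Imm_KO library removed *Cmklr1* at the filter, and the other 5 stayed called. The count of receptors called in mAM_KO against mAM_WT, 1 in the main analysis, was 0 when only the 2 groups were fitted, without a variance trend and with limma-voom, and 3 with DESeq2 (*Cx3cr1*, *Cxcr4* and *Cmklr1*). Leaving out 1 library gave 0 to 2: 0 without mAM_KO replicate 1 or 3, and 2 without mAM_KO replicate 2, which added *Ccrl2* (limma adjusted p = 0.0396), or without mAM_WT replicate 2, which added *Cxcr4*. The cause was not tested. No difference of a receptor changed sign. The *Cmklr1* difference from mAM_WT ranged from 4.12 with a pseudocount of 1 to 10.6 with DESeq2. The replicate block left the counts at 1, 6 and 6, and same-numbered libraries did not deviate together (correlations -0.129 to 0.059), so the numbers were not taken as pairs. Between Imm_KO and mAM_KO, only replicates 2 and 3 could be compared in this way (0.059 and -0.033). These few values cannot show whether mAM_KO and Imm_KO libraries shared mice. Over all genes, calls in mAM_KO against mAM_WT ranged from 122 without a variance trend to 1368 with DESeq2 (main 624), and from 162 without mAM_KO replicate 3 to 861 without mAM_WT replicate 1. For the other lists, a fit with all 11 libraries was added after seeing the data. In mAM_KO against mAM_WT it called 2 signalling genes higher and 2 lower (main 1 and 3) and left the counts of receptors and ligands as they were. In Imm_KO against mAM_WT it called 11 signalling genes higher (main 12) and left the other counts as they were. In Imm_KO against mAM_KO it called 5 receptors lower (main 4) and 2 ligands higher (main 3). Of the signalling genes, 7 were then higher and 16 lower (main 8 and 15).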
